A study of Mus musculus with 4 samples.

Results

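The mitochondrial ribosomal RNA (rRNA) genes mt-Rnr1 and mt-Rnr2 were followed in brown adipose tissue (BAT), a fat depot that burns fuel for warmth. They were taken by their gene names and the annotated type of mitochondrial rRNA, 2 of 17259 listed genes. RNA of isolated mitochondria was compared with RNA that the treatment labels assign to the tissue without mitochondria, called the non-mitochondrial fraction, to find RNAs that accompany mitochondria. All 4 libraries came from wild-type (WT) brown adipose tissue, with 2 libraries per fraction and no age, sex or number of animals given. The titles of the latter libraries carry the word total, and the text of the study describes them as lysates of total tissue. In that case they hold the whole tissue, mitochondria included. Nothing in the labels says that libraries of a fraction came from separate animals, so the p-values below measure only the spread between these libraries. 

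mt-Rnr1 is the 12S rRNA of the small subunit of the mitochondrial ribosome, and mt-Rnr2 is the 16S rRNA of its large subunit. Both are transcribed from the heavy strand of the mitochondrial genome together with tRNAs and most mRNAs, as 1 long precursor. The tRNAs that lie between the other genes are cut out, which releases the rRNAs and mRNAs. A transcription terminator, bound by the protein MTERF1, lies just after the 16S gene in mt-Tl1. The finished rRNAs join many nucleus-encoded proteins, and the resulting ribosomes make 13 subunits of the respiratory chain and the ATP synthase. In brown adipocytes the respiratory chain builds the proton gradient that the uncoupling protein UCP1 dissipates as heat.

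Sequences of the rRNAs are shown at the ends where they are cut free and at sites that mark their roles. They are the heavy strand transcripts of the mitochondrial genome (chrM, build GRCm38, plus strand), read from the GENCODE M21 transcripts, 5′ to 3′. mt-Rnr1 (ENSMUSG00000064337) is a single exon of 955 bases at chrM:70-1024 with 35.8% G or C. Its first 60 bases (chrM:70-129) follow mt-Tf after 1 base. Its last 60 bases (chrM:965-1024) hold, in capitals, the loop of the final hairpin, whose adenosines are methylated by TFB1M. The capitals start at base 935 of the gene.

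mt-Rnr1, first 60 bases: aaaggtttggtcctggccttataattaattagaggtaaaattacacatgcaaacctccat
mt-Rnr1, last 60 bases: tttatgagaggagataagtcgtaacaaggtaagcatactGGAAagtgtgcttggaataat

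mt-Tv, the tRNA for valine, fills the 69 bases between the rRNAs (chrM:1025-1093), with 0 bases between it and either of them. In human mitochondria this tRNA is also a structural part of the large ribosomal subunit.

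mt-Tv, whole: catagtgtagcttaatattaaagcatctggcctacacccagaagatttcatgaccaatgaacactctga

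mt-Rnr2 (ENSMUSG00000064339) is a single exon of 1582 bases at chrM:1094-2675 with 35.4% G or C. Beside its ends (chrM:1094-1153 and chrM:2616-2675), 60 bases at chrM:2349-2408 are shown, because they hold a motif of the peptidyl transferase centre, where peptide bonds form. The motif, in capitals, occurs 1 time in the gene and starts at base 1282.

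mt-Rnr2, first 60 bases: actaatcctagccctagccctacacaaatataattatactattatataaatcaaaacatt
mt-Rnr2, bases around the catalytic centre: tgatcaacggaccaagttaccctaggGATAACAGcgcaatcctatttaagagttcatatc
mt-Rnr2, last 60 bases: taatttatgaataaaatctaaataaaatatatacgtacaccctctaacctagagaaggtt

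mt-Tl1, a tRNA for leucine, follows mt-Rnr2 with 0 bases between them (chrM:2676-2750). Its capitals mark letters of the MTERF1 terminator, which start at base 8 of the tRNA gene.

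mt-Tl1, whole: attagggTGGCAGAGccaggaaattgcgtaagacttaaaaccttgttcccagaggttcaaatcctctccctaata

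Neither rRNA matched a transcript of another listed gene at 90% identity or more over at least 50 bases, so no listed gene was found that could share their reads at that similarity. In contrast, 17 nuclear genes matched other mitochondrial transcripts. Of these, 5 were listed within 20% of the value of the gene they copy in every library, and the other 12 at 34.8% of it or less. Among the 5, Gm28437, a copy of mt-Co3, was listed at 101%, 100.2%, 100.4% and 99.7% of the value of mt-Co3 in the 4 libraries. Of the 13 mitochondrial mRNAs, only mt-Nd1 and mt-Atp8 had no such match. The shares of a library given below are therefore shares of a total in which some mRNA values may count at more than 1 gene.

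Values are normalised counts, reads per gene divided by the authors' size factor of each library. The normalised totals were 218773335 and 171918657 in mitochondria replicates 1 and 2, and 1590096 and 1905303 in the non-mitochondrial replicates. In mitochondria 1 read was worth 8.32 and 6.90 units, which gave 26288871 and 24910434 reads. The reads behind the non-mitochondrial values are unknown.

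The rRNAs were the highest genes of every library in normalised counts, mt-Rnr2 at rank 1 and mt-Rnr1 at rank 2 in all 4. The normalised count of mt-Rnr1 was 46668910 and 37495196 in mitochondria replicates 1 and 2, from 5607960 and 5432959 reads. In non-mitochondrial replicates 1 and 2 it was 239526 and 352996. The normalised count of mt-Rnr2 was 131780718 and 104148183 in mitochondria, from 15835403 and 15090808 reads. It was 448569 and 611876 in the non-mitochondrial fraction. For both rRNAs each mitochondria library lay above both non-mitochondrial libraries, and replicate 1 was the higher of the mitochondria libraries and the lower of the others.

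**Figure D1:**
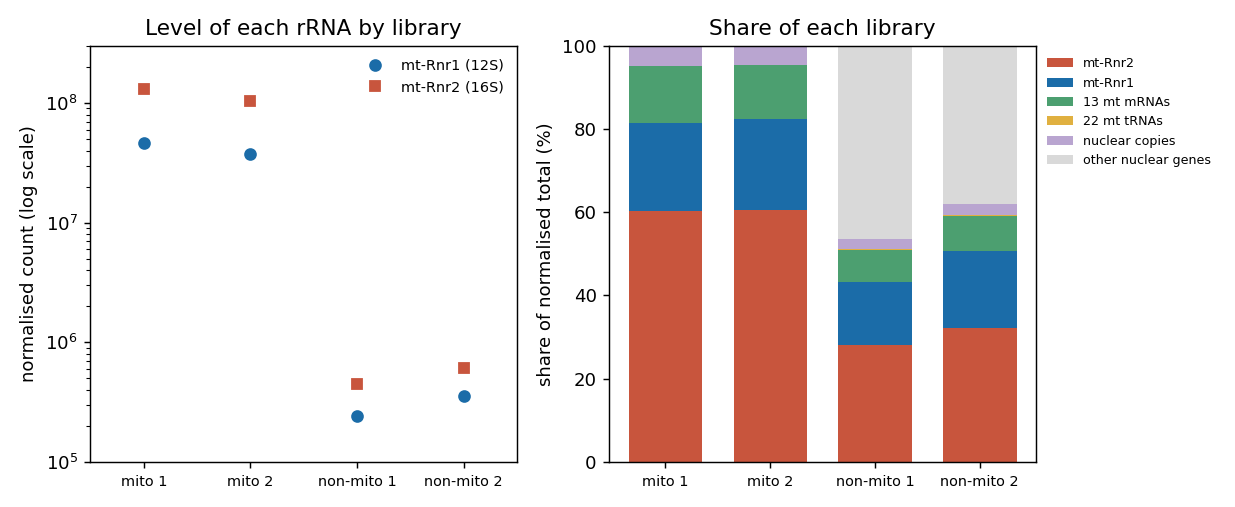
Left, normalised count (log scale) of mt-Rnr1 (circles) and mt-Rnr2 (squares) in mitochondria (mito) and non-mitochondrial (non-mito) replicates 1 and 2. Right, share of each library's normalised total (%) by gene class, where nuclear copies are nuclear genes that match mitochondrial transcripts. Both rRNAs together filled 81.6% and 82.4% of the mitochondria libraries and 43.3% and 50.6% of the others.

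Both rRNAs were higher in mitochondria by limma across 8215 genes. The log2 fold change of mt-Rnr1 was 7.17 (SE 0.47, limma adjusted p = 0.0249), a 144-fold difference. The log2 fold change of mt-Rnr2 was 7.80 (SE 0.46, limma adjusted p = 0.0249), a 224-fold difference. Of all genes tested, 66 (0.803%) were called higher and 362 (4.41%) lower in mitochondria. Of the 362 genes called lower, 359 had 0 reads in both mitochondria libraries. These fold changes rest on size factors that left the mitochondria totals far above the others, and the median log2 fold change over all genes was −1.23. With values scaled to CPM over all genes, which gives every library the same total, the log2 fold change was 0.37 for mt-Rnr1 (limma adjusted p = 0.128) and 1.01 for mt-Rnr2 (limma adjusted p = 0.00256). On that scale the median of all genes was −4.25, and 31 genes were called higher and 7968 lower. On CPM over nuclear genes the log2 fold changes were 3.63 and 4.27, the median of all genes −4.01, and 69 genes were called higher and 7496 lower. Copies of mitochondrial transcripts held 95.3% and 94.0% of that nuclear total in mitochondria, against 5.18% and 6.53% in the other libraries. Without the copies in the total, a scaling added after the data were seen, the log2 fold changes were 7.78 and 8.41, the median of all genes −0.73, and 70 genes were called higher and 363 lower. Relative to the median of all genes the main values were 8.40 for mt-Rnr1 and 9.03 for mt-Rnr2. With limma's trend the adjusted p was 0.258 for mt-Rnr1 and 0.343 for mt-Rnr2, and with the replicate number as a block 0.158 for both, so that neither was called. Without non-mitochondrial replicate 1, or without replicate 2, the adjusted p of both rRNAs rose to 0.439 and 0.446, with log2 fold changes still at or above 6.89.

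The share of a library and ratios within a library do not depend on the size factors. Whether ribosomal cDNA was depleted is not given in the sources used here, and any depletion would enter both. mt-Rnr2 took 60.2% of the normalised total of mitochondria replicate 1 (95% Wilson interval 60.2 to 60.3%) and 60.6% of replicate 2 (60.6 to 60.6%). In the non-mitochondrial fraction its share was 28.2% and 32.1%. mt-Rnr1 took 21.3% (21.3 to 21.3%) and 21.8% (21.8 to 21.8%) in mitochondria, and 15.1% and 18.5% in the other fraction. The intervals cover counting error only. For both rRNAs the 2 fractions did not overlap in share, but the gap was wider for mt-Rnr2.

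Together the rRNAs made up 82.0% ± 0.581 of the mitochondria libraries and 47.0% ± 5.21 of the non-mitochondrial libraries (SD, n = 2 each) and thus differed by 35.0 percentage points. The rest of the non-mitochondrial libraries was mostly nuclear: nuclear genes without a match to mitochondrial transcripts took 46.4% and 38.1% there, against 0.225% and 0.271% in mitochondria. The methods describe RNase A on isolated mitochondria of hearts before RNA isolation. Whether mitochondria of BAT had it is not stated, so fraction and treatment cannot be told apart for nuclear or cytosolic RNA. When only the 37 mitochondrially encoded genes were counted, the share of the rRNAs was similar in both fractions. Mitochondria replicates gave 85.6% and 86.3%, non-mitochondrial replicates 84.8% and 85.4%, and the means differed by 0.877 percentage points. That difference was 0.543 points without mitochondria replicate 2, 0.539 without non-mitochondrial replicate 1, and 1.21 and 1.22 without mitochondria replicate 1 and non-mitochondrial replicate 2. The lowest mitochondria library and the highest non-mitochondrial library were 85.6% and 85.4%, so the fractions barely missed each other.

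The balance between the rRNAs also differed, and by more than their sum relative to the mitochondrial mRNAs did. The ratio of mt-Rnr2 to mt-Rnr1 in normalised counts was 2.82 and 2.78 in mitochondria, compared with 1.87 and 1.73 in the other libraries. The means of 2.80 ± 0.0326 and 1.80 ± 0.0985 (SD, n = 2 each) show that the ratio was 1.55-fold higher in mitochondria. The 0.64 difference on the log2 scale compares with a pooled SD of 0.057. It ran from 0.58 to 0.69 when any single library was left out, 0.62 without mitochondria replicate 1. As the fractions do not overlap, leaving 1 library out cannot turn the direction.

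mt-Rnr2 is 1.66 times as long as mt-Rnr1, and a longer RNA gives more fragments. Per base, the ratio of mt-Rnr2 to mt-Rnr1 was 1.70 and 1.68 in mitochondria, compared with 1.13 and 1.05 in the other libraries. Since 1 molecule of each rRNA enters a ribosome, equal molecules read evenly would give a per-base ratio of 1. The non-mitochondrial libraries lay near that value, while the mitochondria libraries held more mt-Rnr2. The share of mt-Rnr1 in the sum of both rRNAs was 26.2% (95% Wilson interval 26.1 to 26.2%) and 26.5% (26.5 to 26.5%) in mitochondria, against 34.8% and 36.6% in the non-mitochondrial fraction. The study set the fragmentation of mitochondrial RNA to 1 min without stating that of the other libraries, so fraction and library preparation cannot be told apart here.

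Against the 13 mitochondrial mRNAs, which share a precursor or a template with the rRNAs, the rRNAs moved in opposite directions. The ratio of mt-Rnr1 to the summed mRNAs was 1.57 and 1.68 in mitochondria but 1.97 and 2.18 in the other libraries, 1.27-fold higher in the non-mitochondrial fraction. The ratio of mt-Rnr2 to the mRNAs was 4.44 and 4.67 in mitochondria and 3.69 and 3.77 in the other fraction, 1.22-fold higher in mitochondria. In the sum these differences largely cancelled: both rRNAs to mRNA gave 6.01 and 6.34 against 5.66 and 5.95, a 1.07-fold difference (means 6.18 ± 0.233 and 5.80 ± 0.204, SD, n = 2 each). On the log2 scale this difference of 0.090 was 0.052 without mitochondria replicate 2 and 0.055 without non-mitochondrial replicate 1. It was 0.18 over the 2 mRNAs without a match to another gene, and 0.025 with the geometric mean per length. Per base, the rRNAs stood 27.0 and 28.5 times above the mRNAs in mitochondria, compared with 25.4 and 26.7 times in the other libraries.

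**Figure D2:**
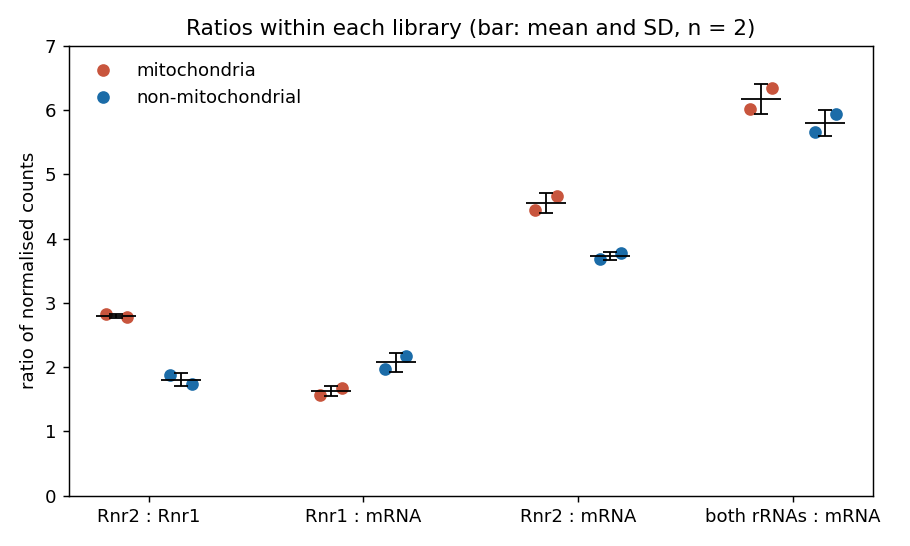
Ratios of normalised counts within each library for mitochondria (red) and the non-mitochondrial fraction (blue). Points are libraries, and bars are the mean and SD (n = 2). The ratio of mt-Rnr2 to mt-Rnr1 lay at 2.78 and above in mitochondria and at 1.87 and below in the other fraction, while the ratio of both rRNAs to mRNA nearly met at 6.01 and 5.95.

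In all, 17 ratios and shares were compared by an exact permutation test (two-sided), and in all 17 the 2 fractions did not overlap. With 2 libraries against 2 this test cannot give a p below 0.333, which was its value for each measure, adjusted or not. A difference of any size that separates the fractions gets that same p. The 17 are not independent either, since many reuse the same values and the per-base ratios differ from their plain forms only by gene length.

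Single mRNAs were all far below the rRNAs per base. mt-Cytb, a subunit of complex III, was the highest in listed values. It stood at 10.3% and 9.66% of the per-base level of mt-Rnr1 in mitochondria, compared with 8.0% and 7.59% in the other libraries. Gm10925, a copy of mt-Atp6, was listed at 116.5% and 116.2% of mt-Atp6 in mitochondria. If reads were divided between gene and copy, the order could differ. mt-Co1, the catalytic subunit of complex IV, stood at 9.35% and 8.05% of mt-Rnr1 per base in mitochondria, and 7.43% and 6.61% in the other fraction. In every library mt-Nd6, a complex I subunit and the only mRNA of the light strand, was lowest, at 0.779% and 0.571% against 0.768% and 0.595%. mt-Nd3, also of complex I, came next at 0.829% and 0.847% against 0.964% and 0.805%. Thus the mRNAs spread over more than a factor of 10 per base, in an order much alike at both ends in the 2 fractions.

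mt-Nd1, a complex I subunit, is the first mRNA after mt-Rnr2 and mt-Tl1 and had no match to another listed gene in the search above. Both rRNAs together were 51.7 and 55.6 times its normalised count in mitochondria, compared with 43.5 and 49.9 times in the other libraries, a 1.15-fold difference. The rRNAs differed in this. mt-Rnr2, which lies next to the MTERF1 site, was 38.1 and 40.9 times mt-Nd1 in mitochondria against 28.4 and 31.7 times, 1.32-fold higher. mt-Rnr1 was 13.5 and 14.7 times mt-Nd1 in mitochondria against 15.2 and 18.3 times, 1.18-fold higher in the non-mitochondrial fraction. For mt-Nd6, which cannot come from the heavy strand precursor, the multiples were 903 and 1217 in mitochondria against 688 and 846, a 1.38-fold difference, with the mitochondria libraries further apart.

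All 13 mRNAs were called higher in mitochondria, as the rRNAs were, beside 0.803% of all genes. With CPM over all genes 9 of 13 were called higher, beside 0.377% of all genes, and the log2 fold changes of all 13 ran from 0.30 to 0.99. As deposited, their log2 fold changes ran from 7.09 for mt-Nd3 to 7.79 for mt-Nd5, with a median of 7.53. Of these, 9 lay above mt-Rnr1 and 0 above mt-Rnr2, so mt-Rnr1 stood in the lower part of the range of the mRNAs and mt-Rnr2 just over its upper end. The ratio to mt-Rnr1 was higher in both mitochondria libraries than in both others for 9 of 13 mRNAs. The ratio to mt-Rnr2 was lower in both for 11 of 13. Over all genes tested, 0.39% had a higher ratio to mt-Rnr1 in both mitochondria libraries, and 97.6% a lower ratio to mt-Rnr2. Whether single mRNAs differed from the rRNAs in fold change was not tested.

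**Figure D3:**
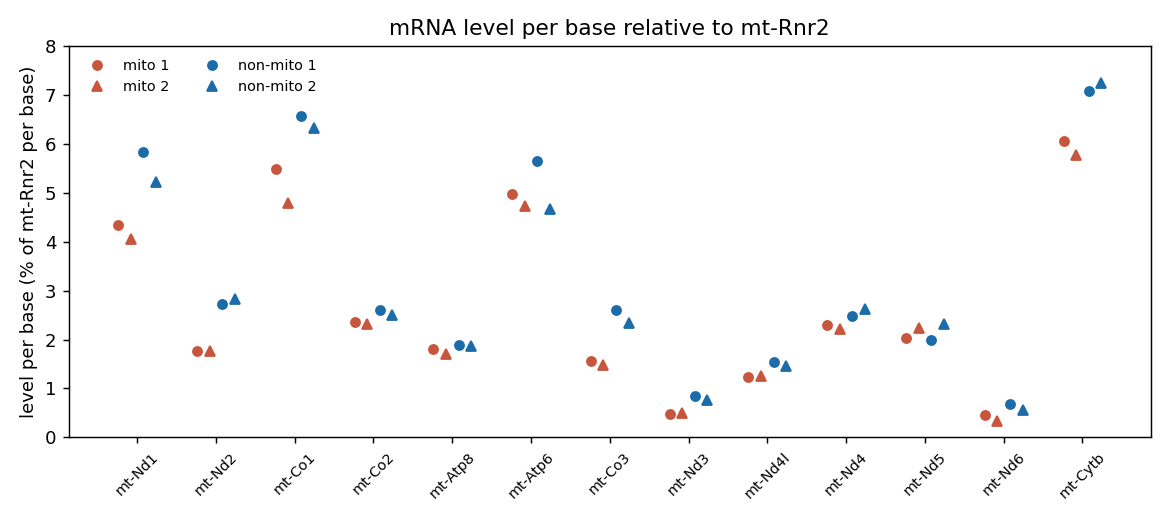
Level per base of each mitochondrial mRNA in percent of mt-Rnr2 per base, in map order, for mitochondria (red) and non-mitochondrial (blue) replicates 1 (circles) and 2 (triangles). In listed values, without those of nuclear copies, mt-Cytb was highest and mt-Nd6 lowest in every library. Most mRNAs were lower against mt-Rnr2 in mitochondria.

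The tRNAs that border the rRNAs behaved differently from them. mt-Tf, the tRNA for phenylalanine before mt-Rnr1, had normalised counts of 2538 and 1932 in mitochondria (305 and 280 reads) and 77 and 59 in the other fraction. mt-Tv, shown above between the rRNAs, had 9187 and 6391 (1104 and 926 reads) against 377 and 417. mt-Tl1, after mt-Rnr2, had 4211 and 2574 (506 and 373 reads) against 114 and 92. All of them were called higher in mitochondria by limma, with log2 fold changes of 5.02, 4.27 and 4.99, well under those of the rRNAs. With CPM over all genes they were called lower instead, with log2 fold changes of −1.68, −2.50 and −1.74, beside 97% of all genes called lower and a median of −4.25. With CPM over nuclear genes, a total made mostly of copies in mitochondria, the values were 1.49, 0.74 and 1.47, and that of mt-Tv was not called (limma adjusted p = 0.133). Without the copies in that total all were called higher, mt-Tv at 4.88 (limma adjusted p = 0.0244).

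In normalised counts the rRNAs exceeded mt-Tv 19420- and 22160-fold in mitochondria but 1825- and 2314-fold in the other libraries. The ratio was 10.1-fold higher in mitochondria for mt-Tv, 5.94-fold for mt-Tf and 6.07-fold for mt-Tl1. Per base, mt-Tv was at 0.160% and 0.141% of mt-Rnr2 in mitochondria and at 1.93% and 1.56% in the other libraries. Among all tRNAs mt-Tv had the lowest log2 fold change. Genes of this length hold few whole fragments, and the methods of the study leave out reads that overlap several genes, which reads across an uncut rRNA-tRNA border would do. How much of the tRNA difference comes with fragment size was not tested.

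On the scale as deposited all 22 tRNAs were called higher in mitochondria, with a median log2 fold change of 5.50 and a range from 4.27 to 9.40, beside 0.803% of all genes called higher. With CPM over all genes 17 were called lower and 2 higher, with a median of −1.18, beside 97% and 0.377% of all genes and a median of −4.25. As a share of the library the tRNAs took 0.119% and 0.0886% in mitochondria against 0.139% and 0.122% in the other libraries. As deposited, 4 lay above mt-Rnr1 and 1, the tyrosine tRNA mt-Ty, above mt-Rnr2. The ratio to mt-Rnr1 was lower in both mitochondria libraries than in both others for 17 of 22 tRNAs, and the ratio to mt-Rnr2 for 20 of 22, beside 97.2% and 97.6% of all genes. Summed over the tRNAs, the rRNAs were 686 and 930 times higher in mitochondria but 312 and 415 times higher in the other libraries, a 2.22-fold difference in that ratio.

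**Figure D4:**
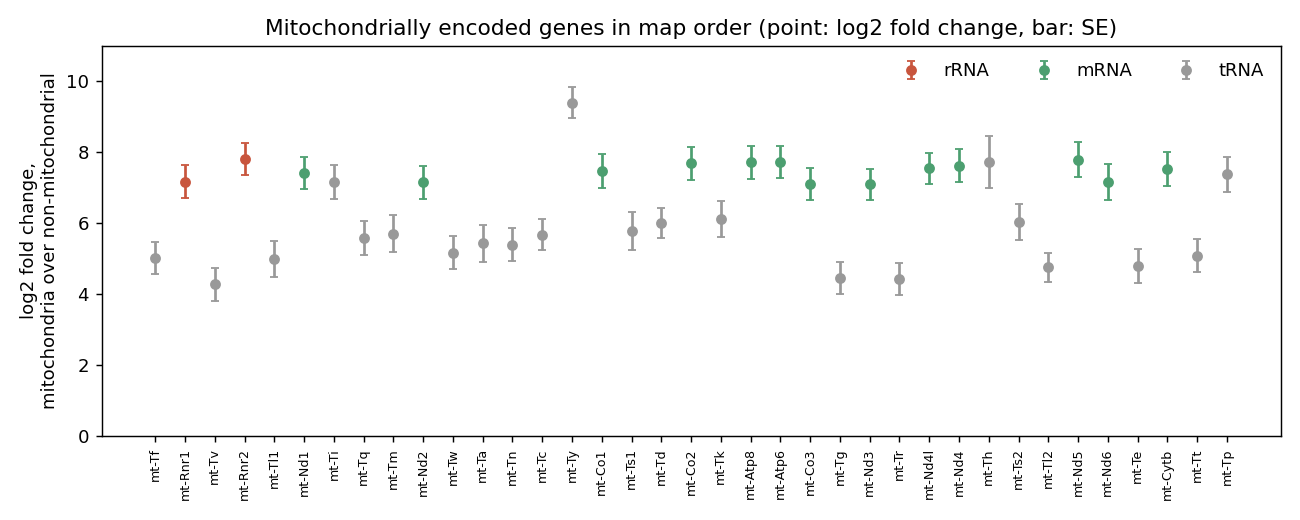
Log2 fold change of mitochondria over the non-mitochondrial fraction (limma, bars are the SE) for the 37 mitochondrially encoded genes in map order, with rRNAs in red, mRNAs in green and tRNAs in grey. The mRNAs lay between 7.09 and 7.79 beside mt-Rnr1 at 7.17 and mt-Rnr2 at 7.80, and most tRNAs lay lower. With CPM over all genes 18 of the 22 tRNAs fell below 0, beside 97% of all genes called lower and a median of −4.25.

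The genes with the most similar profile were sought among all tested genes by the root mean square difference of log2 values over the 4 libraries, after each gene was centred. For mt-Rnr1 the nearest were mt-Ti (0.022), the isoleucine tRNA, and mt-Nd2 (0.025), a complex I subunit. The next were Gm28439 (0.070), Gm13340 (0.093) and Gm28438 (0.099), nuclear copies of mitochondrial mRNAs. For mt-Rnr2 the nearest were the copies Gm13341 (0.037) and Gm4076 (0.051), then mt-Atp8 (0.056), an ATP synthase subunit. Gm28661 (0.062), a copy of mt-Co2, and mt-Co2 (0.064), a complex IV subunit, followed. Neither rRNA was the nearest of the other: at a distance of 0.32, mt-Rnr2 ranked 31 for mt-Rnr1 and mt-Rnr1 ranked 23 for mt-Rnr2. With 4 libraries these distances are a description only.

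The proteins of the mitochondrial ribosome are encoded in the nucleus, and in the main fit their mRNAs were called about as often as genes in general. Of 82 listed genes 78 were tested, and limma called 0 higher and 5 lower in mitochondria, beside 0.803% higher and 4.41% lower over all genes tested. At an unadjusted p under 0.05, 12 were lower and 0 higher, beside 14.9% lower and 3.2% higher over all genes. edgeR and DESeq2, with the deposited non-mitochondrial values taken as reads, called 0 in either direction. Over all genes edgeR called 3.06% higher and 0.596% lower, and DESeq2 3.09% and 0.219%. The 5 became 22 and 39 without mitochondria replicates 1 and 2, beside 41.1% and 47% of all genes called lower, 78 with CPM over all genes, beside 97%, and 0 with the block or without either non-mitochondrial library. The median log2 fold change was −1.13, beside −1.23 over all genes tested. Their summed normalised counts were 1541 and 2644 in mitochondria, against 3533 and 2979. In the mitochondria libraries these genes had few reads, at most 10 in replicate 1 and 27 in replicate 2, with medians of 2 and 3.

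The 5 genes called lower each had 0 reads in both mitochondria libraries. These were Mrps16, Mrps18b and Mrps28 of the small subunit, Mrpl43 of the large subunit, and Gadd45gip1, also a large subunit protein. A count of 0 allows up to 3 reads, on average 22.8 units per mitochondria library. The mean of the other libraries stood 1.62-fold above this floor for Mrpl43 (48 and 26 units). It stood 1.20-fold above for Gadd45gip1 (32 and 23) and 1.14-fold for Mrps18b (22 and 30). These folds leave out the spread between libraries, and Mrps18b lay under the floor in non-mitochondrial replicate 1. Mrps28 (19 and 22) and Mrps16 (24 and 17) did not exceed the floor on average. With the 5 genes lower by those folds, or at no change where they did not exceed the floor, the median of the list was −0.88. No such median over all genes is given here, so this value has no background. The largest increase was that of Mrps18c, with a log2 fold change of 1.13 (limma adjusted p = 0.295) from 3 reads in each mitochondria library.

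The factors that make, cut, modify, assemble or degrade these rRNAs were also nuclear and low. Of 43 listed genes 24 were tested, and limma called 0 higher and 0 lower, beside 0.803% and 4.41% over all genes. At an unadjusted p under 0.05 there were 1 lower and 0 higher, beside 14.9% and 3.2% over all genes. edgeR and DESeq2, run as above, also called 0, beside the shares of all genes given above for these tools. Their median log2 fold change was −1.83, beside −1.23 over all genes. Among 5 transcription genes, Polrmt, the RNA polymerase, had 25 and 7 units in mitochondria and 49 and 53 in the other libraries. Tfam, which packages mitochondrial DNA and helps start transcription, had 75 and 28 against 40 and 29. Among 3 genes that cut out tRNAs, Elac2, which cleaves their 3′ ends, had 0 and 7 (0 and 1 read) against 63 and 46. Its log2 fold change was −4.28 (limma adjusted p = 0.243), which can overstate the decrease at so few reads.

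Of the rRNA modifying enzymes 3 were tested, among them Nsun4, a methyltransferase of the 12S rRNA, with 0 and 35 units against 20 and 19. Mrm3, a methyltransferase of the 16S rRNA, had 42 and 7 against 16 and 11. Of the assembly factors 9 were tested, among them Eral1, which binds the 3′ end of the 12S rRNA, with 0 and 21 against 35 and 25. Of the genes for turnover and stability 4 were tested. Supv3l1, the helicase of the RNA-degrading complex, had 17 and 35 against 50 and 49. Lrpprc, which stabilises the mRNAs, had 33 and 145 against 253 and 201. In the mitochondria libraries, values such as 7 or 8 units are 1 read, so these libraries could not resolve single factors at this depth.

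Cytosolic rRNA gave a view of ribosomes outside mitochondria, but the table used here listed few of its long transcripts. The 85 listed cytosolic rRNA genes, mostly 5S copies, took 0.0212% and 0.0213% of the mitochondria libraries and 2.27% and 1.86% of the others. The 5.8S gene n-R5-8s1 had 2929 and 3057 units in mitochondria against 8106 and 7359. The 5S gene Rn5s had 1323 and 1008 against 1015 and 1009. Of 60 tested, limma called 1 higher, the 5S gene n-R5s161 with 50 and 55 against 2 and 2 units, and 0 lower, beside 0.803% higher and 4.41% lower over all genes. The median log2 fold change was 0.41. Copies of 5S with near-identical sequence can share reads, so single values among them are uncertain. Whether ribosomal cDNA was depleted is not given in the sources used here, and the share of cytosolic rRNA in the tissue cannot be read from these values. The same limit holds for the mitochondrial rRNAs.

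Markers of brown adipocytes were found in all 4 libraries: Ucp1 had 1290 and 3554 units in mitochondria against 4819 and 4185 in the other libraries. All 11 listed markers summed to 2871 and 7971 against 13651 and 12196. Markers of other tissues were not even across libraries. The 6 liver markers summed to 9720 units in mitochondria replicate 1, 746 in replicate 2, and 163 and 5 in the other libraries, with albumin (Alb) alone at 4943, 393, 97 and 3. The 5 skeletal muscle markers summed to 2530 and 773 against 244 and 505, the 4 blood markers to 208 and 400 against 218 and 477, and the 3 endothelial markers to 84 and 7 against 729 and 765. Without mitochondria replicate 1 the difference in the share of rRNA was 35.4 percentage points, and the log2 fold changes were 7.01 for mt-Rnr1 and 7.64 for mt-Rnr2.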

How the data were processed

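RNA of isolated mitochondria and of the non-mitochondrial fraction was prepared with a stranded low-input total RNA kit, and libraries were sequenced with single-end reads. For mitochondria of hearts the methods describe digitonin and RNase A before RNA isolation. They do not describe that step for the other fraction, nor how mitochondria were isolated from BAT. According to the methods, reads were trimmed, aligned to GRCm38 with STAR and counted with featureCounts, without reads of several genes or positions. The submitters' processing notes name Trimmomatic 0.39, STAR 2.7.10a, featureCounts 2.0.2 and DESeq2 1.30.1, while the methods give other versions of the last 3. Of 17 nuclear copies 5 carried about the values of the gene they copy, so reads of several positions may have been counted there. The authors deposited 1 table whose signal is reads per gene divided by a size factor per library and rounded. In the mitochondria columns of the deposited signal, steps gave whole reads for 100.0% of values: the number of reads times the step, rounded to a whole number, equalled the deposited value. Recovery was tested on simulated data. Reads of the other columns are unknown, so count tests were alternatives only, with the deposited values there taken as reads.

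Genes with a mean of at least 10 were tested as log2(normalised count + 1) with limma 3.58.1 in R 4.3.3, and an adjusted p (Benjamini-Hochberg) under 0.05 counted as a call. Fold changes are on that scale, which understates increases of low genes and can overstate decreases where a mitochondria library has 0 reads, since 1 read there is worth several units. Ratios and shares were compared by an exact permutation test. Shares of recovered reads have Wilson intervals at 95%. Alternative settings changed the pseudocount, the filter on low values, the scaling (4 others), limma's trend and the libraries included, added the replicate block, or used edgeR 4.0.16 or DESeq2 1.42.0 on reads. CPM over nuclear genes without copies of mitochondrial transcripts was added after the data were seen. Transcripts were compared with BLAST 2.17.0, and all 37 mitochondrial genes had the same coordinates in GENCODE M21. Named genes were the rRNAs, the mitochondrial mRNAs, the tRNAs next to the rRNAs, cytosolic rRNAs, markers of tissues (Ucp1, Alb), the 5 genes nearest to each rRNA in profile, and per nuclear list those called and the largest change in each direction. The other genes named (mt-Ty, Gm28437, Polrmt, Nsun4, Mrm3, Eral1, Supv3l1, Lrpprc) were chosen after their values were seen. The members, the lists and the alternatives were chosen with earlier results of these data known.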

Additional observations from a re-analysis of the deposited data

How the results depend on the processing

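The log2 fold changes of both rRNAs stayed above 0 under every alternative run. For mt-Rnr1 it was 0.37 (adjusted p = 0.128) with CPM over all genes, 7.17 (adjusted p = 0.258) with limma's trend, and between 6.89 and 7.45 with 1 library left out. For mt-Rnr2 it was 7.80 (adjusted p = 0.343) with the trend and between 7.58 and 8.03 with 1 library left out. TMM gave 7.52 and 8.15, edgeR 7.74 and 8.39, and DESeq2 7.87 and 8.52, with the reads of the non-mitochondrial libraries assumed. The median of all genes moved from −1.23 to −0.90 with TMM and to −0.62 with median ratios over nuclear genes.

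With the replicate number as a block the log2 fold changes were 7.17 and 7.80 with an adjusted p of 0.158 for both, and 0 mitoribosomal protein genes were called lower. The labels do not say that equal numbers pair the libraries, and their deviations correlated at r = 0.11 over 8215 genes. Fewer residual degrees of freedom are left by the block and by leaving out a library.

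The log2 difference of rRNA to mRNA, 0.090, was 0.025 with the geometric mean per length and 0.18 over the mRNAs without a match to another gene. With 1 library left out, the difference in the share of rRNA among mitochondrially encoded genes, 0.877 percentage points, ran from 0.539 to 1.22. With 2 libraries per fraction that do not overlap, leaving 1 out cannot turn a direction, and the block and the division by length leave such differences as they are, so these settings say nothing about stability.

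Mitoribosomal protein genes called lower numbered 5, but 0 with a pseudocount of 10, a mean of at least 50, edgeR or DESeq2, 78 and 77 with CPM over all and nuclear genes (5 without copies in the nuclear total), and 0 to 39 with 1 library left out (22 without mitochondria replicate 1, 39 without replicate 2). Those called higher numbered 0 to 3 with 1 library left out. Biogenesis genes called lower numbered 24 of 24 under both CPM scalings, beside 97% and 91.2% of all genes, 0 without copies in the nuclear total, and 0 to 18 with 1 library left out (8 and 18 without mitochondria replicates 1 and 2), and those called higher 0 to 1. Over all genes, 66 higher and 362 lower became 53 and 1 with a pseudocount of 10, 64 and 11 with a mean of at least 50, 143 and 3587 with no filter, 251 and 49 with edgeR, 254 and 18 with DESeq2, and 0 and 0 with the block or without either non-mitochondrial library. Without mitochondria replicate 1 they were 467 and 3374, and without replicate 2, 622 and 3864. The cause of these changes was not tested.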
